A study of Mus musculus with 4 samples.

Results

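The proteasome genes were the 44 genes, of 23980 in the expression table, whose symbol is Psma, Psmb, Psmc, Psmd, Psme or Psmf followed by a number. They encode the subunits, assembly chaperones, activators and inhibitor of the proteasome, and all 44 were described. RNA was taken from spermatocytes of the leptotene and zygotene stages (L/Z), with which meiosis begins, purified by fluorescence-activated cell sorting from F1 hybrids between C57BL/6J and MSM/Ms mice of 3 to 4 weeks. The 4 polyA(+) RNA libraries came from a Dnmt3L heterozygote (the heterozygote), a Pld6 wild type (the WT), a Dnmt3L knockout (KO) and a Pld6 KO, with 1 library per genotype. Pld6 encodes a mitochondrial protein needed to make piRNAs, and Dnmt3l a cofactor of de novo DNA methylation in male germ cells. The Dnmt3L heterozygote and the Pld6 WT library served together as controls, so the spread between them holds genotype, line and sorting as well as chance, and no mutant value has a replicate. How many animals gave each library was not given in the sources used here. According to the study the germ cells of both knockouts are lost by the late zygotene stage, while control testes of this age also hold pachytene spermatocytes and spermatids.

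The proteasome degrades proteins that carry ubiquitin chains. Its barrel-shaped 20S core is built from outer rings of alpha subunits (Psma genes) and inner rings of beta subunits (Psmb genes), and 3 of the beta subunits hold the proteolytic sites. The 19S cap, made of ATPases (Psmc genes) and non-ATPase subunits (most Psmd genes), binds, unfolds and admits the substrate. Some subunits are exchanged in particular cells. Psma8 encodes the germ-cell form of the alpha subunit encoded by Psma7, and the proteasomes that hold it, called spermatoproteasomes, are known from meiotic and later male germ cells. Psmb8, Psmb9 and Psmb10 encode the catalytic subunits of the immunoproteasome, which is abundant in immune cells and is induced by interferon, and Psmb11 encodes a subunit known from the cortical epithelium of the thymus.

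The 4 libraries held 30439943 to 63875934 fragments in genes. Levels are given as FPKM, fragments scaled to gene length and library depth. Pld6 was listed at 17.2 and 19.5 FPKM in the heterozygote and the WT, 8.55 FPKM in Dnmt3L KO and 0.334 FPKM in Pld6 KO, and Dnmt3l was at 1.27, 0.98, 0 and 0.432 FPKM in the same order, so that both targeted genes were at their lowest in their own knockout. All 12 L/Z spermatocyte markers were detected in every library, with Sycp3, a component of the meiotic chromosome axis, between 285 and 782 FPKM. The libraries also held RNA of other cells in unequal amounts. The summed level of 8 Sertoli cell markers was 3166 FPKM in the heterozygote and 117 FPKM in the WT, 4426 FPKM in Dnmt3L KO and 285 FPKM in Pld6 KO. That of 7 Leydig cell markers was 331, 25.9, 333 and 237 FPKM, and that of 9 macrophage markers was 74.6, 24.3, 139 and 62.5 FPKM, in that order. The 5 markers of peritubular and vascular cells summed to 560, 132, 304 and 570 FPKM. The WT library was the lowest of the 4 for each of these 4 lists. The 8 markers of white blood cells summed to 12.9, 14.0, 12.9 and 23.4 FPKM, with the Pld6 KO highest and the other 3 libraries close together.

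Proteasome RNAs were abundant in every library. In these bulk samples, which also held RNA of other cells, their level cannot be assigned to L/Z spermatocytes alone. The 31 constitutive subunits (7 alpha, 7 beta, 6 ATPase and 11 non-ATPase genes) had a median level of 183 FPKM in the heterozygote, 151 FPKM in the WT, 155 FPKM in Dnmt3L KO and 136 FPKM in Pld6 KO, where the median over the 14416 genes with a mean of at least 1 FPKM lay between 11.3 and 13.4 FPKM. The highest constitutive subunit was Psma6 in the heterozygote (430 FPKM), Psmb4 in the WT (377 FPKM) and the Dnmt3L KO (362 FPKM), and Psmb7 in the Pld6 KO (329 FPKM). The lowest was Psmd3 in both Dnmt3L-line libraries (55.8 FPKM in the heterozygote and 57.6 FPKM in the KO), Psmd7 in the WT (57.7 FPKM) and Psmd14 in the Pld6 KO (69.3 FPKM). Psmd3 and Psmd14 encode 19S lid subunits, and the product of Psmd14 removes ubiquitin chains from substrates. The order of the 31 levels was much alike between libraries, with Spearman's rho across genes between 0.796 and 0.939, a description over subunits that share libraries and are not independent. The germ-cell, immune and thymic subunits all lay below these levels, as the plot of levels by gene shows.

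**Figure D1:**
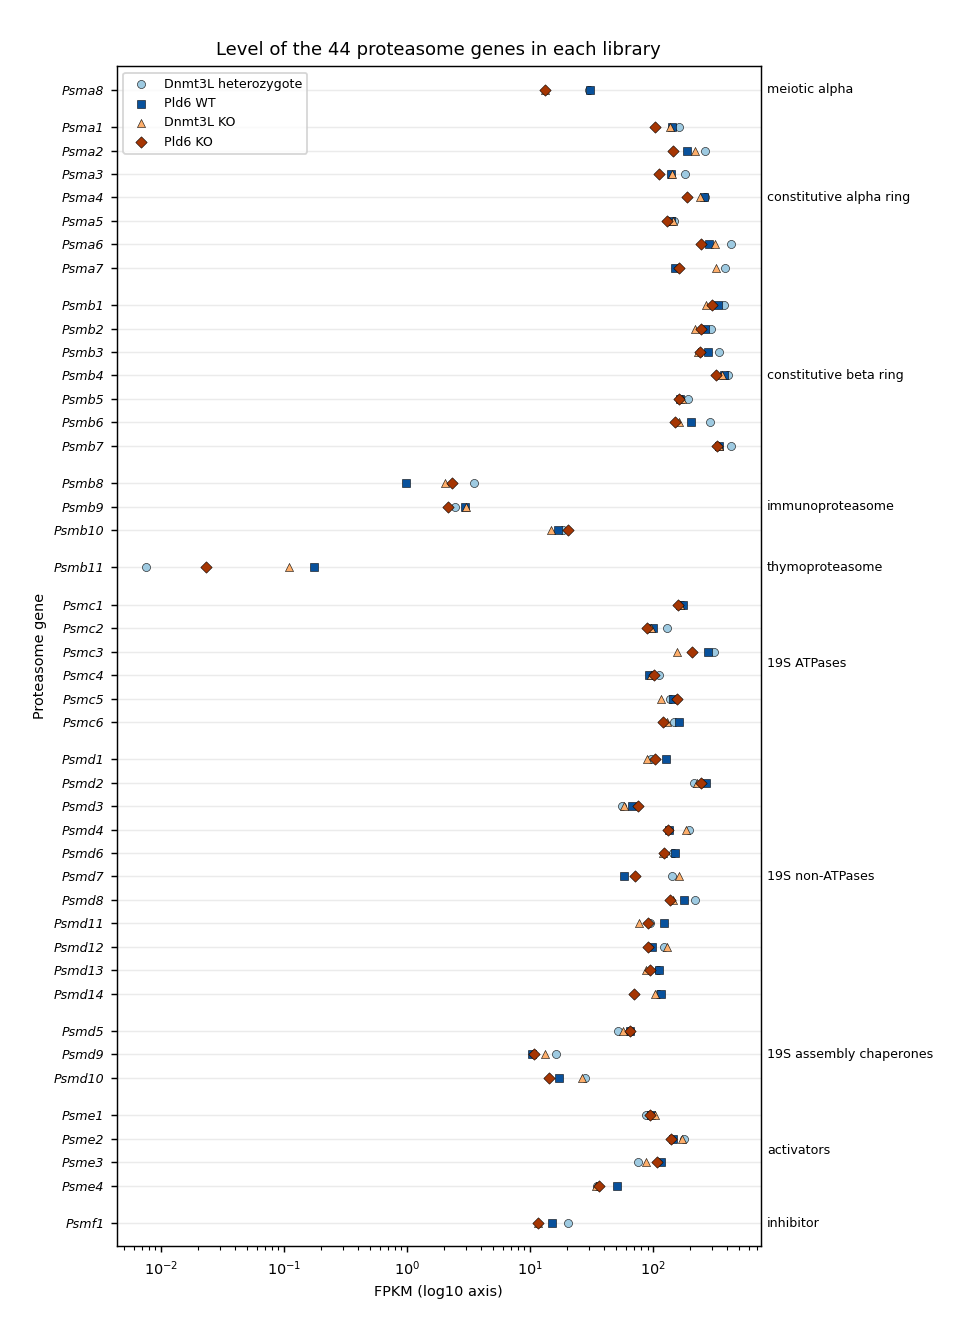
FPKM on a log10 axis of each of the 44 proteasome genes (rows, grouped by role) in the 4 libraries (1 point per library). The constitutive subunits lie between 55.8 and 430 FPKM, Psma8 between 13.3 and 30.9 FPKM, Psmb8 and Psmb9 between 0.986 and 3.50 FPKM, and Psmb11 below 0.2 FPKM in every library.

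Psma8, on chromosome 18 from 14706135 to 14762301 (mm10), had the lowest log2 change in both mutants among the 43 proteasome genes with a mean of at least 1 FPKM. It was at 30.1 FPKM (2911 fragments) in the heterozygote and 30.9 FPKM (1875 fragments) in the WT, and at 13.3 FPKM in both mutants (937 fragments in Dnmt3L KO, 627 in Pld6 KO). The controls lay close together and both mutants lay below them, with no overlap. The mutant level was 43.5% of the control mean in each. On the scale of log2((FPKM + 1)/(mean control FPKM + 1)), which understates the change of low genes, the difference was -1.14 in the Pld6 KO and -1.14 in the Dnmt3L KO. Both values rest on the same controls. Within lines, which share no library, Psma8 was 2.33-fold lower in the Pld6 KO than in the WT and 2.27-fold lower in the Dnmt3L KO than in the heterozygote.

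By the rule that FPKM + 1 lie more than 2-fold beyond both controls, Psma8 was the 1 proteasome gene of 44 that was lower in the Pld6 KO, where 5.41% of all genes were, and the 1 of 44 that was lower in the Dnmt3L KO, where 5.78% of all genes were. Among genes with a mean of at least 1 FPKM, to which 43 of the 44 belong, the shares were 8.57% and 9.16%. Psma8 met the rule in both mutants, as 4.61% of all genes and 7.3% of those genes did. The members' shares were below these backgrounds, so the count itself is no result about proteasome genes. None of the 44 was higher by the same rule in the Pld6 KO (1.04% of all genes) or in the Dnmt3L KO (2.14% of all genes). In edgeR's quasi-likelihood test, whose only residual degree of freedom came from the controls, the adjusted p of Psma8 was 0.875 in the Pld6 KO and 0.787 in the Dnmt3L KO. In that test 0 of the 44 genes passed an adjusted or an unadjusted p of 0.05 in either mutant. Of all 18657 genes tested, 0% passed the adjusted p, and 7.96% in the Pld6 KO and 8.81% in the Dnmt3L KO passed the unadjusted one. DESeq2's Wald test, which called 5.46% and 5.26% of the genes it tested, and edgeR without a filter on low counts, which called 2.12% and 2.09%, also called 0 of the 44.

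The lines were also taken as blocks, which sets each knockout beside the control of its own line. That edgeR model, added after the values had been seen, takes both knockouts as 1 group with 1 common effect and has 1 residual degree of freedom. It put Psma8 at a log2 change of -1.24 (adjusted p = 0.0371), and Psma8 was the 1 of 44 genes called, where 7.28% of all genes were. An unadjusted p of 0.05 was passed by Psma8, Psmb6, Psmc3 and Psmf1, 4 of 44, where 18.8% of all genes passed it. Without the block the same grouping gave Psma8 an adjusted p of 0.381, called 0 of the 44 and 0% of all genes, and had 1 of 44 and 9.14% of all genes past the unadjusted p. The members' shares were again below those of all genes.

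**Figure D2:**
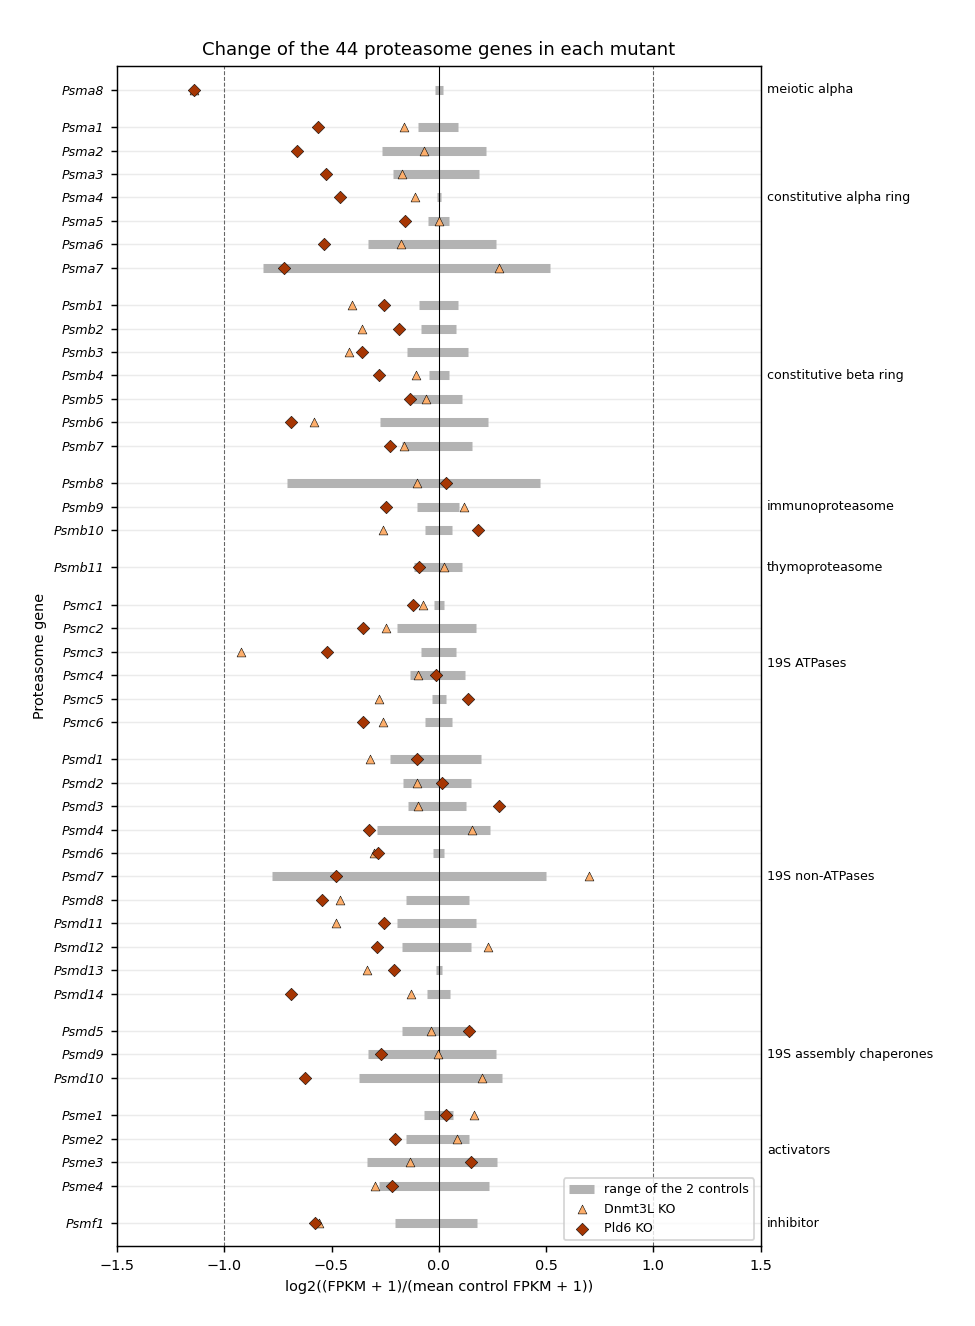
Change of each of the 44 proteasome genes in the Pld6 KO (diamonds) and the Dnmt3L KO (triangles) as log2((FPKM + 1)/(mean control FPKM + 1)), with the range of the 2 controls as a grey bar, 1 library per mutant, and dashed lines at a 2-fold difference from the control mean. Psma8 lies at -1.14 in both mutants, where its symbols coincide, and the 43 other genes lie between -0.92 and 0.70.

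Most markers of later germ cells were, like Psma8, lower in both mutants than in both controls. The summed level of 8 pachytene spermatocyte markers was 1015 FPKM in the heterozygote and 585 FPKM in the WT, against 76.1 FPKM in Dnmt3L KO and 88.7 FPKM in Pld6 KO, and 7 of the 8 were more than 2-fold below both controls in each mutant. That of 12 spermatid markers was 7244 and 185 FPKM in the controls against 32.0 and 15.0 FPKM in the mutants, with Acrv1, which encodes an acrosomal protein, at 0 in the Pld6 KO. In both lists the mutants lay much further below the controls than for Psma8, and the controls differed more from each other than they did for Psma8. The 12 L/Z markers summed to 1340 and 2300 FPKM in the controls and to 829 FPKM in Dnmt3L KO and 1364 FPKM in Pld6 KO. Within lines 11 of the 12 were lower in each mutant, as Psma8 was. Their median log2 difference was -0.64 in the Pld6 KO and -0.42 in the Dnmt3L KO, beside -1.16 and -1.12 for Psma8. Below both controls lay 3 of the 12 in the Pld6 KO and 10 in the Dnmt3L KO. Of all genes with a mean of at least 1 FPKM, 32.4% and 34% did. Psma8 stood at 61.8% and 25.2% of their median level in the heterozygote and the WT, and at 34.1% and 17.2% in the Dnmt3L KO and the Pld6 KO. On that relative scale the WT lay below the Dnmt3L KO, so the groups overlapped, while each mutant remained below the control of its line. The part of later germ cells in the level of Psma8 was not tested, and in these bulk samples fewer cells of a type and less RNA per cell cannot be told apart.

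**Figure D3:**
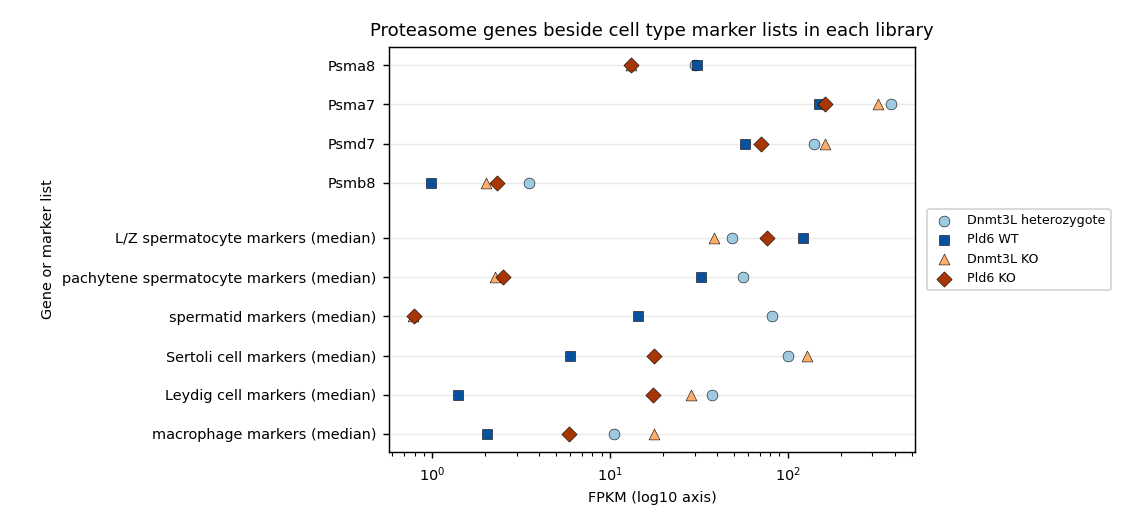
FPKM on a log10 axis of 4 proteasome genes and the median FPKM of 6 marker lists (rows) in the 4 libraries (1 point per library). Psma8 and the pachytene and spermatid markers are lower in both mutants than in both controls, while Psma7, Psmd7 and Psmb8 are lowest in the WT library, as are the Sertoli, Leydig and macrophage markers.

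Against the other proteasome RNAs the difference in Psma8 was smaller. Psma8 stood at 16.5% of the median constitutive subunit in the heterozygote, 20.4% in the WT, 8.55% in Dnmt3L KO and 9.76% in Pld6 KO. The controls were again above both mutants, but on this scale, chosen after the values had been seen, Psma8 no longer lay more than 2-fold below both controls in either mutant and 0 members did. The share of Psma8 in the sum with Psma7, whose product it replaces, was 7.27% in the heterozygote (95% Wilson interval 7.01% to 7.54%, counting error only), 17.0% in the WT (16.2% to 17.8%), 3.92% in Dnmt3L KO (3.68% to 4.18%) and 7.59% in Pld6 KO (7.02% to 8.20%). By this share the controls and mutants overlapped, since the Pld6 KO lay above the heterozygote. Each mutant had a lower share than the control of its own line.

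That overlap came with the level of Psma7, which encodes the ubiquitous form of the subunit. Psma7 (chromosome 2, 180036367 to 180042464) was at 383 FPKM in the heterozygote, 151 FPKM in the WT, 325 FPKM in Dnmt3L KO and 161 FPKM in Pld6 KO. The Dnmt3L-line libraries were high and the Pld6-line libraries low, and both mutants lay between the controls. With the median of Psma1 to Psma7 in place of Psma7, a partner chosen after the values had been seen, the share of Psma8 was 10.3% and 17.0% in the controls and 5.76% and 8.46% in the Dnmt3L KO and the Pld6 KO, with both mutants below both controls.

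On the FPKM + 1 scale the controls stood more than 2-fold apart, besides Psma7, for Psmd7, which encodes a 19S lid subunit, and for the immunoproteasome gene Psmb8. All 3 were higher in the heterozygote, a direction in which 11.1% of all genes were more than 2-fold apart, and 0 members were more than 2-fold lower there, as 3.77% of all genes were. That scale holds the low gene Psmb11, with 2 and 29 fragments in the controls, near 0. Psmd7 was at 141 FPKM in the heterozygote, 57.7 FPKM in the WT, 162 FPKM in Dnmt3L KO and 71.1 FPKM in Pld6 KO. Like Psma7 it was high in both libraries of the Dnmt3L line and low in both of the Pld6 line. Without the heterozygote, the Dnmt3L KO exceeded the remaining control more than 2-fold for Psma7 and Psmd7. That comparison rests on the WT alone, and the share of all genes beside it is not given. The Sertoli cell markers showed the same order of lines, and their part in these differences was not tested.

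The 7 constitutive alpha genes had a median log2 change of -0.53 in the Pld6 KO, where 6 lay below both controls, and of -0.11 in the Dnmt3L KO, where 2 did. Within lines 6 of the 7 were lower in the Pld6 KO and 7 of 7 in the Dnmt3L KO, with median log2 differences of -0.31 and -0.25. The 7 constitutive beta genes had median log2 changes of -0.26 and -0.36, with 7 and 5 below both controls, and each of the 7 was lower in each mutant than in the control of its line. Of all genes with a mean of at least 1 FPKM, 32.4% lay below both controls in the Pld6 KO and 34% in the Dnmt3L KO. Below the control of the line lay 49.2% and 45.2%. Subunits measured in the same libraries are not independent. Whether the mutants differed from each other in the alpha and beta lists was not tested.

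Psmb6, which encodes the beta subunit that cleaves after acidic residues, was the beta gene with the lowest log2 change in both mutants. It was at 287 FPKM in the heterozygote, 202 FPKM in the WT, 163 FPKM in Dnmt3L KO and 151 FPKM in Pld6 KO. Both mutants were below both controls, with log2 changes of -0.58 and -0.69 against their mean, and edgeR's adjusted p was 0.928 in Dnmt3L KO and 0.991 in Pld6 KO. The other catalytic subunits lay nearer the controls. Psmb5, whose product cleaves after hydrophobic residues, was at 193, 164, 171 and 163 FPKM in the same order of libraries, and Psmb7, whose product cleaves after basic residues, at 428, 341, 344 and 329 FPKM. For both genes the heterozygote was the highest library and the other 3 were close together. Psmb5 was the only member whose estimated fragment counts were not whole, as happens when reads are divided between genes or copies, so its values are less certain.

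In the 19S cap, the 6 ATPase genes had median log2 changes of -0.24 in the Pld6 KO and -0.25 in the Dnmt3L KO. Psmc3, on chromosome 2 from 91054016 to 91059438, had the lowest value among the constitutive subunits in the Dnmt3L KO. It was at 311 FPKM in the heterozygote, 279 FPKM in the WT, 155 FPKM in Dnmt3L KO and 205 FPKM in Pld6 KO. Both mutants were below both controls, and the Dnmt3L KO was the lowest library. The log2 change was -0.92 in Dnmt3L KO (edgeR adjusted p = 0.799) and -0.52 in Pld6 KO (edgeR adjusted p = 1). In the Dnmt3L KO it stood 2.01-fold below the heterozygote, and it met the 2-fold rule there when the WT was left out. Psmc5, another ATPase gene, was among the 3 constitutive subunits with the highest log2 change in the Pld6 KO, at 0.14.

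The 11 non-ATPase genes had median log2 changes of -0.28 in the Pld6 KO, where 7 were below and 1 was above both controls, and of -0.13 in the Dnmt3L KO, where 6 were below and 2 above. Of all genes with a mean of at least 1 FPKM, 32.4% were below and 31% above both controls in the Pld6 KO. In the Dnmt3L KO 34% were below and 35.5% above. Psmd14 was at 108 FPKM in the heterozygote, 117 FPKM in the WT, 103 FPKM in Dnmt3L KO and 69.3 FPKM in Pld6 KO. The Pld6 KO stood apart from the other 3 libraries, at -0.69 on the log2 scale. Psmd3 ran the other way, at 55.8, 67.5, 57.6 and 75.1 FPKM in that order. The Pld6 KO lay above both controls, with a log2 change of 0.28 against their mean, and the Dnmt3L KO between them. Psmd2, which encodes a scaffold subunit of the base of the cap, differed by 0.02 in the Pld6 KO. In the Dnmt3L KO, Psmd11 had a log2 change of -0.48 and Psmd12 one of 0.23, both of them lid genes, and Psmd7 reached 0.70.

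Over all 31 constitutive subunits the median log2 change was -0.29 in the Pld6 KO and -0.16 in the Dnmt3L KO, beside -0.05 and -0.02 over all genes with a mean of at least 1 FPKM. The mutant lay below both controls for 24 of the 31 genes in the Pld6 KO, where 32.4% of those genes did, and for 18 of 31 in the Dnmt3L KO, where 34% did. It lay above both for 2 of 31 in each, where 31% of those genes did in the Pld6 KO and 35.5% in the Dnmt3L KO. Compared within lines, 26 of 31 were lower in the Pld6 KO than in the WT, as 49.2% of the same genes were, and 27 of 31 lower in the Dnmt3L KO than in the heterozygote, as 45.2% were. On FPKM + 1, more than 2-fold below the control of its line were 2 members in the Dnmt3L KO, Psma8 and Psmc3, where 8.22% of all genes were, and 1 member in the Pld6 KO, Psma8, where 6.46% of all genes were. None was more than 2-fold above it in the Dnmt3L KO (3% of all genes) or the Pld6 KO (4.69% of all genes), though on plain FPKM Psmb8 was 2.35-fold higher in the Pld6 KO than in the WT. The differences were small, since the highest library exceeded the lowest by a median of 1.44-fold and by more than 2-fold only for Psma7, Psmc3 and Psmd7. The heterozygote was the highest of the 4 libraries for 19 of the 31 genes and the Pld6 KO the lowest for 17, so among these genes the order of libraries did not follow the mutants alone. The same counts were not made over all genes, so they are no result about proteasome genes in particular. No constitutive subunit passed the 2-fold rule or the adjusted p of an edgeR model.

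The immunoproteasome genes were low in all 4 libraries and had no common direction. Psmb8 (chromosome 17, 34198195 to 34201454) was at 3.50 FPKM in the heterozygote (232 fragments), 0.986 FPKM in the WT (41 fragments), 2.02 FPKM in Dnmt3L KO (98 fragments) and 2.32 FPKM in Pld6 KO (75 fragments). Both mutants lay between the controls. Psmb9, its neighbour from 34182030 to 34187330, was at 2.47, 2.97, 3.04 and 2.14 FPKM in the same order, with the Dnmt3L KO just above and the Pld6 KO just below both controls. Psmb10 (chromosome 8, 105935728 to 105938392) was higher, at 18.6, 16.9, 14.7 and 20.3 FPKM. It lay below both controls in the Dnmt3L KO and above both in the Pld6 KO, with log2 changes of -0.26 and 0.18 against their mean. The summed level of the white blood cell markers was highest in the Pld6 KO too, but the markers did not move alike. Cd79a was at 7.88 FPKM there, against 0.548 FPKM in the heterozygote and 0.742 FPKM in the WT. Cd3e ran the other way, at 3.04 FPKM against 7.59 and 6.89 FPKM. The part of such cells in the level of Psmb10 was not tested. The median log2 change of the 3 genes was 0.03 in the Pld6 KO and -0.10 in the Dnmt3L KO.

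Each immunoproteasome subunit made up a small share of the sum with the catalytic subunit it replaces. Psmb8 had 1.78% of the sum with Psmb5 in the heterozygote, 0.597% in the WT, 1.17% in Dnmt3L KO and 1.40% in Pld6 KO. The WT was the lowest, with a Wilson interval (0.440% to 0.809%) below those of the other 3 libraries, and both mutants lay between the controls. Psmb9 had 0.854%, 1.45%, 1.83% and 1.40% of the sum with Psmb6 in the same order, so that the Pld6 KO lay between the controls and the Dnmt3L KO above them. Psmb10 had 4.17%, 4.73%, 4.10% and 5.81% of the sum with Psmb7, highest in the Pld6 KO, whose interval (5.40% to 6.26%) lay above those of the other libraries. These intervals hold counting error only, and the difference between the controls is the only measure of the spread between libraries.

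**Figure D4:**
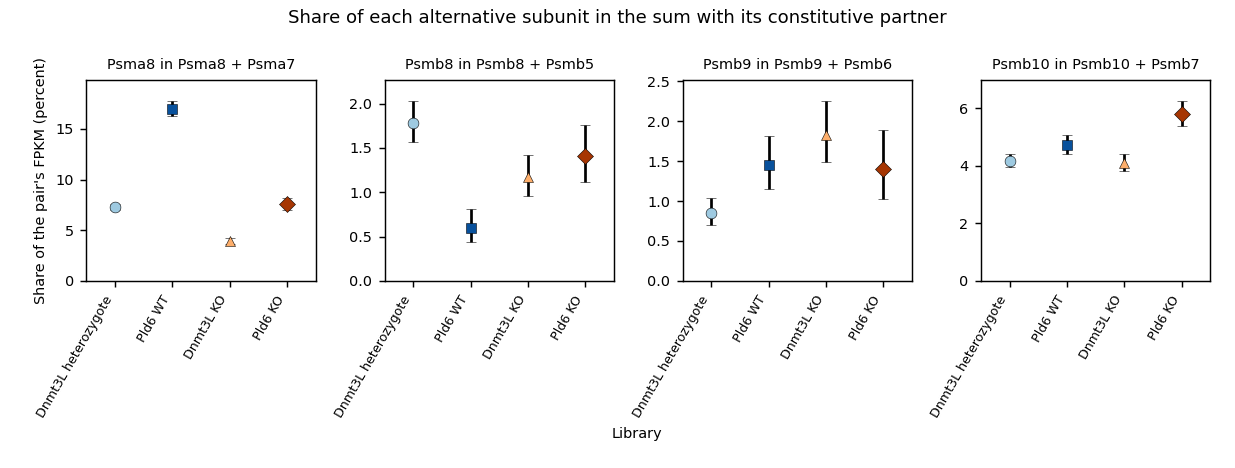
Share of each alternative subunit in the summed FPKM with its constitutive partner, in percent, in the 4 libraries (1 point per library), with 95% Wilson intervals for counting error, 1 panel per pair and each axis from 0. The share of Psma8 spans 3.92% to 17.0%, and those of Psmb8, Psmb9 and Psmb10 span 0.597% to 1.78%, 0.854% to 1.83% and 4.10% to 5.81%.

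Tap1, an antigen presentation gene next to Psmb9 that encodes a peptide transporter and shares inducers with the immunoproteasome, was at 2.27 FPKM in the heterozygote, 0.384 FPKM in the WT, 2.26 FPKM in Dnmt3L KO and 2.15 FPKM in Pld6 KO, with the WT lowest, as for Psmb8. Of 7 genes for antigen presentation and its regulator, chosen after the values had been seen, Tap1, Tap2, Tapbp, B2m and Nlrc5 (5 of 7) were lowest in the WT, while the class I genes H2-K1, at 162 FPKM, and H2-D1, at 109 FPKM, were at their highest there. The same count was not made over all genes, so it is no result about these genes in particular. In the longer list from which the 7 were taken, the other genes were not all lowest in the WT. The macrophage and Leydig cell markers were also lowest in that library, and their part in the level of Psmb8 was not tested.

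Short stretches ahead of the genes are shown for Psmb5 and Psmb6, constitutive catalytic genes at 151 FPKM or more in every library, and for Psmb8, which was at or below 3.50 FPKM. RefSeq (GRCm38.p6, with the coordinates of mm10) gave promoter windows for 37 of the 44 genes. In the 250 bases before each start, on both strands, 3 motifs were searched. TGACNNNGC is the core of the antioxidant response element that Nfe2l1 and Nfe2l2 bind, TTCNNNGAA the core of the gamma-activated site, an element of interferon-induced genes, and CCAAT the box bound by NF-Y. TGACNNNGC was in 5 of the 37 genes (Psmb5, Psmb6, Psmc6, Psmd9 and Psmd12; 13.5%, against 11.5% of all 27025 genes with a window), TTCNNNGAA only in Psmb8 (2.70%, against 8.13%) and CCAAT in 14 (37.8%, against 37.5%). Matches of different motifs overlapped in 0 of the members' windows. The shares were near the backgrounds or rest on 1 gene, and a match is a description of the sequence, not a binding site. The stretches below run 5′ to 3′ on the strand of the gene, with the match in capitals, and the capitals begin 47 (Psmb5), 9 (Psmb6) and 97 (Psmb8) bases before the start of the gene. They lie at chr14:54618026-54618125 (minus strand), chr11:70525327-70525356 (plus strand) and chr17:34198090-34198119 (plus strand). The Psmb8 stretch lies in an exon that GENCODE annotates for Psmb8, the Psmb6 stretch outside GENCODE exons but within the span RefSeq gives for Psmb6, and the Psmb5 stretch outside both.
Psmb5: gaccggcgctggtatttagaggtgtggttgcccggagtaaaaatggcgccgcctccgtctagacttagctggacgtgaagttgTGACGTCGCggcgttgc
Psmb6: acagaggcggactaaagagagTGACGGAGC
Psmb8: ctccgctgTTCCCAGAAgatgccccccccc

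Nfe2l1, which encodes the factor that raises proteasome genes when proteasome activity is short, was at 59.3 FPKM in the heterozygote, 48.8 FPKM in the WT, 74.8 FPKM in Dnmt3L KO and 94.7 FPKM in Pld6 KO. Both mutants lay above both controls, with log2 changes of 0.46 and 0.80 against their mean, and neither met the 2-fold rule. The wider pathway list covers assembly chaperones, ubiquitin shuttles and deubiquitinases of the proteasome, Vcp and its cofactors, and others such as Nfe2l1 and Nfe2l2. Of its 30 symbols, which name some genes by an older and a newer symbol, 26 were found. In either direction and either mutant 0 of these were called. Of all genes 1.04% were called higher and 5.41% lower in the Pld6 KO, and 2.14% and 5.78% in the Dnmt3L KO. The median log2 change of the list was 0.00 in the Pld6 KO and 0.08 in the Dnmt3L KO.

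The thymic subunit gene Psmb11, next to Psmb5 on chromosome 14, was near the limit of detection. It was at 0.00761 FPKM in the heterozygote (2 fragments), 0.176 FPKM in the WT (29 fragments), 0.109 FPKM in Dnmt3L KO (21 fragments) and 0.0234 FPKM in Pld6 KO (3 fragments). The controls spanned both mutants, and 2 of the libraries held no more than 3 fragments, a number that counting alone can give. It was the only one of the 44 genes with a mean below 1 FPKM.

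The activators open the core without ubiquitin, and none of their 4 genes met the 2-fold rule. Psme1 and Psme2, which encode the subunits of the interferon-inducible ring PA28, were at 86.9 and 178 FPKM in the heterozygote, 95.7 and 145 FPKM in the WT, 103 and 171 FPKM in the Dnmt3L KO and 93.4 and 140 FPKM in the Pld6 KO. They were thus of the order of the constitutive subunits, unlike Psmb8 and Psmb9, and their log2 changes were 0.17 and 0.08 in the Dnmt3L KO and 0.03 and -0.20 in the Pld6 KO. Psme3, for the nuclear ring, was at 75.9, 116, 87.4 and 107 FPKM, with both mutants between the controls. Psme4, for the activator PA200, which is known to act on acetylated histones in spermatids, was at 35.0, 50.3, 34.5 and 36.5 FPKM, with the Dnmt3L KO just below both controls and the Pld6 KO between them.

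Psmf1, which encodes the proteasome inhibitor PI31, was at 20.1 FPKM in the heterozygote, 15.2 FPKM in the WT, 11.7 FPKM in Dnmt3L KO and 11.5 FPKM in Pld6 KO. Both mutants lay below both controls, with log2 changes of -0.56 and -0.57 against their mean, and neither passed the 2-fold rule or edgeR's test of each mutant (adjusted p = 0.933 and 1). The 3 genes for chaperones that help to assemble the 19S base, Psmd5, Psmd9 and Psmd10, lay between 10.3 and 64.7 FPKM. Of these only Psmd10 in the Pld6 KO lay outside the controls, at 14.3 FPKM against 28.0 and 17.2 FPKM, a log2 change of -0.62 against their mean. Of all genes with a mean of at least 1 FPKM, 32.4% lay below both controls there, so this is no result about the chaperones.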

How the data were processed

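PolyA(+) RNA of FACS-purified L/Z spermatocytes was sequenced by the authors as strand-specific reads of 50 bases from 1 end. Per the labels and the study's methods the authors aligned the reads with TopHat2 and quantified genes with Cuffdiff on mm10. The versions were not given in the sources used here. The deposited table holds, for each gene, each library's estimated count of fragments before scaling, and the authors' FPKM. Its other columns were not used.

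Changes were computed as log2((FPKM + 1)/(mean control FPKM + 1)), and a gene was called when FPKM + 1 lay more than 2-fold beyond both controls. The estimated counts were rounded and tested with edgeR 4.0.16 (quasi-likelihood, TMM, filterByExpr, Benjamini-Hochberg over 18657 genes, 3 groups, 1 residual degree of freedom, common dispersion 0.347), with DESeq2 1.42.0 as an alternative. Pair intervals are 95% Wilson intervals scaled to FPKM. Reads carried no molecular identifiers, so intervals hold counting error only. Nothing says that the controls are from separate litters or days.

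The members and gene lists were chosen with earlier results of these data known. Named were Psma8, Psmb8 to Psmb11, the Psme genes, Psmf1, the partners Psma7, Psmb5, Psmb6 and Psmb7, members called in a mutant, and the 3 highest and 3 lowest constitutive subunits by log2 change in each mutant. Other members named, such as Psma6, Psmb4, Psmd5, Psmd9 and Psmd10, were chosen after their values were seen. Alternatives covered the pseudocount, threshold, scaling, filter, tool and each control left out. The median alpha partner, the scale relative to the median constitutive subunit and edgeR's model with the line as a block were added after seeing the data. Some genes of the marker and antigen presentation lists are not reported here.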

Additional observations from a re-analysis of the deposited data

Results flagged for a closer look

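Psmb8 was singled out because its level moved in opposite directions in the 2 lines. On the log2(FPKM + 1) scale it was higher by 0.74 in the Pld6 KO than in the Pld6 WT, and lower in the Dnmt3L KO than in the Dnmt3L heterozygote, with a log2 difference of -0.57. The 4 libraries held 41 to 232 fragments of Psmb8, and this difference between lines was not tested. Opposite directions were not particular to Psmb8. In the Pld6 and the Dnmt3L line the log2 differences were -0.34 and 0.22 for Psmb9, and 0.25 and -0.32 for Psmb10.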

How the results depend on the processing

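Of the values and counts recomputed under other settings, 72 differed from the reported one by less than the SD between the controls (counts by at most 1.5 times) and 15 by more. Of 50 values recomputed, 6 took the other sign, each when 1 control was left out. With only 2 controls, leaving 1 out cannot move a share by more than the SD between them. The 72 include such shares, so for them the comparison with the SD could not show a move. Without the Pld6 WT the share of Psma8 in the Pld6 KO went from -4.54 to 0.317 percentage points against the controls, that of Psmb8 from 0.213 to -0.381, and the median log2 change of Psmb8, Psmb9 and Psmb10 from 0.03 to -0.15. Without the Dnmt3L heterozygote the share of Psmb9 in the Pld6 KO went from 0.244 to -0.0531, that of Psmb8 in the Dnmt3L KO from -0.0221 to 0.572, and the same median in the Dnmt3L KO from -0.10 to 0.03. At a threshold of 1.5-fold, 2 members were lower in each mutant (Psma8 with Psmd14 in the Pld6 KO, and with Psmc3 in the Dnmt3L KO), and at 3-fold 0 were. Relative to the median constitutive subunit 0 members were lower in either. With each control left out in turn, the members lower numbered 1 to 2 in each mutant, 2 without the Pld6 WT (Psma7 and Psma8 in the Pld6 KO, Psma8 and Psmc3 in the Dnmt3L KO), and the members higher in the Dnmt3L KO numbered 0 to 2, 2 without the Dnmt3L heterozygote (Psma7 and Psmd7). Shares of all genes at these settings are not set beside these counts, so the counts are no result about proteasome genes in particular. The log2 change of Psma8 was -1.19 in both mutants with a pseudocount of 0.1 FPKM, and -1.21 in the Pld6 KO and -1.18 in the Dnmt3L KO on TMM-scaled fragments. The share of Psmb10 in the Pld6 KO exceeded the control mean by 1.36 percentage points from FPKM and 1.82 from raw fragments. The causes of these moves were not tested.

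Without either control no residual degree of freedom was left, so edgeR was not run there. Without a filter on low counts edgeR called 2.12% of genes in the Pld6 KO and 2.09% in the Dnmt3L KO, and with DESeq2 5.46% and 5.26% were called, none of them a member. The labels number no pairs, but each knockout shares a line with 1 control: with the line as a block and both knockouts as 1 group, edgeR called 1 of 44 genes, Psma8 (adjusted p = 0.0371), against 0 without the block. Of all genes 7.28% were called with the block and 0% without it, so the members' share was below that of all genes. The model with the block has 1 residual degree of freedom, and none with a library left out. With 1 library per mutant, differences under the spread between the controls were not detectable, and at 41 to 232 fragments Psmb8 is limited by depth as well.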
